A study of Mus musculus with 12 samples.

Results

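The heat shock transcription factor gene Hsf1 and 9 genes of cytosolic chaperones (Hspa1a, Hspa1b, Hspa8, Hsp90aa1, Hsp90ab1, Hspb1, Hsph1, Dnajb1 and Dnaja1) were followed in immortalized mouse embryonic fibroblasts (MEFs). These 10 genes were chosen by symbol, for what they encode, from the 34866 genes of the deposited expression table. The study asked how cells of each sex respond to loss of Sirt3, a deacetylase of the mitochondria, and sequenced polyadenylated RNA of 12 libraries, 3 for each sex and genotype (male and female WT, male and female KO). Embryos of embryonic day 13 were taken from WT females of the 129S1/SvImJ strain (Sirt3+/+) and from females of a Sirt3-/- stock, and embryos were handled one by one so that each culture has a single sex. Cells of all 4 groups were immortalized with a plasmid carrying SV40 T-antigen, seeded at passage 6 in 3 parallel wells, as many as there are libraries in a group, and collected 48 h later. The number of lines behind these wells is not stated and may be 1, so what genotype, sex and cell line each contribute cannot be told apart. The methods name a number of reads aimed at for each library, and the TPM table used here, without the raw reads, does not show the depth reached.

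Heat shock chaperones bind stretches of unfolded protein and help them to fold, hold them in a soluble state or hand them to degradation. Hsf1 raises the mRNA of many of them when unfolded protein accumulates: chaperones that had kept it inactive let go, and it binds as a trimer to heat shock elements, runs of the units GAA and TTC in the promoters of its target genes. Some chaperones of this group, such as Hspa8 and Hsp90ab1, are made at all times in growing fibroblasts, while Hspa1a, Hspa1b and Hspb1 are best known for their rise after heat or other protein damage, a treatment that the labels of these cultures do not list.

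The knocked-out gene was read first. Sirt3 was at 6.59, 7.17 and 9.07 TPM in the male WT libraries, 8.88, 10.9 and 11.0 in male KO, 7.40, 7.60 and 8.69 in female WT and 7.57, 9.06 and 8.19 in female KO. Its mRNA was not lower in the libraries labelled KO, which goes against what that label would lead one to look for in total mRNA, and a value per gene leaves the state of the transcript unknown. On the log2(TPM+1) scale, on which all fold changes are given here, Sirt3 differed by 0.39 between male KO and male WT (limma with Benjamini-Hochberg adjustment, adjusted p = 0.0981) and by 0.059 between female KO and female WT (adjusted p = 0.772). Sirt3 protein and respiration, which the study also assayed, were not analysed here, and mRNA alone does not settle the label, so male KO and female KO stand below for the libraries labelled so. The Y-linked gene Ddx3y stood at 34.7 ± 1.02 TPM in male WT, 33.5 ± 2.71 in male KO, 0.121 ± 0.0930 in female WT and 0.119 ± 0.0469 in female KO (SD, n = 3 each), as the labels of sex have it. All 12 libraries had their nearest neighbour, by root mean square log2 difference, within their own group.

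TPM is scaled by transcript length, so levels can be compared between genes. Over the 12 libraries the mean level was 2115 TPM for Hsp90ab1, 1656 for Hspa8, 798 for Hsp90aa1, 283 for Dnaja1, 109.8 for Hsph1, 104 for Hspb1, 80.5 for Hsf1, 38.6 for Dnajb1, 28.6 for Hspa1b and 5.69 for Hspa1a. As listed, the first 4 kept this order in every library, with no overlap between neighbours. The place of Hspa8 is uncertain, since it shares sequence with the pseudogene Gm15459, and the 2 together, at 2617 to 2878 TPM, exceeded Hsp90ab1, at no more than 2346, in every library. Hsph1 and Hspb1 overlapped, and Hspb1 lay below Hsf1 in the male WT libraries and above it in the other 9. Hspa1b came nearest to Dnajb1 in male WT. It lay above Dnajb1 in replicate 2 there, and below it in the other 11 libraries. Hspa8, Hsp90aa1 and Hsp90ab1 together held 86.8% to 88.5% of the TPM of the 10 genes in a library, so the summed TPM of the 10 describes these 3 genes more than the rest. Over all 10 genes it was 5274 ± 119.6 TPM in male WT, 4836 ± 49.9 in male KO, 5456 ± 60.5 in female WT and 5310.1 ± 31.7 in female KO (SD, n = 3 each). This sum was lowest in the male KO libraries, which did not overlap with any other group. Cultures were measured in bulk, so less RNA per cell and a smaller share of cells that carry it cannot be told apart here or in any result that follows.

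**Figure D1:**
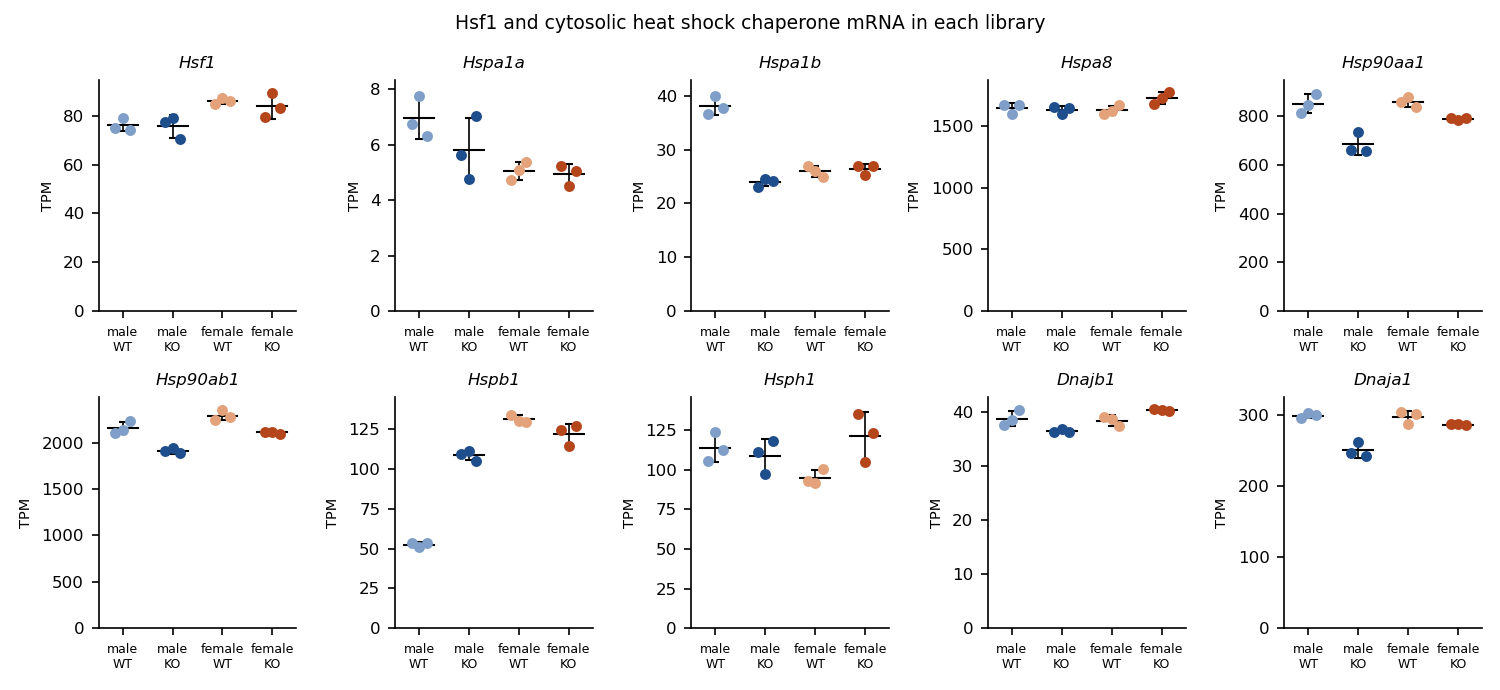
TPM of Hsf1 and the 9 chaperone genes (y axis, from 0) in each of the 12 libraries (points), by group, with the group mean and SD (bars, n = 3 each). Hspa1b was 36.6 to 40.0 TPM in male WT and at most 27.01 elsewhere, Hspb1 was 50.9 to 53.4 in male WT and at least 105 elsewhere, and Hsp90aa1 and Dnaja1 were lowest in male KO.

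Differences were tested by limma for the 12504 genes that averaged 1 TPM or more, all 10 genes among them, and a difference was called at a Benjamini-Hochberg adjusted p under 0.05. The p-values measure the spread between these cultures, which may be technical. Groups that do not overlap are described throughout, but this is not a call. For 3 libraries against 3 the smallest p that a 2-sided permutation could give is 0.1. How many of all genes show such groups is not given. Between male KO and male WT, 5 of the 10 genes were called, against 21.6% of all tested genes. Of these 4 were lower in KO (Hspa1b, Hsp90aa1, Hsp90ab1 and Dnaja1), against 10.9% of all genes, and 1 was higher (Hspb1), against 10.7%. Between female KO and female WT, 2 were called (Hsp90aa1 and Hsp90ab1), against 11.5% of all genes. Both Hsp90 genes were lower in KO, where 5.84% of all genes were lower and 5.63% higher. The median log2 fold change of the 10 genes was -0.13 in males, beside -0.015 over all genes, and -0.035 in females, beside -0.023.

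The direct test of whether the knockout differences differ between the sexes (the male difference minus the female difference, over all 12 libraries) called 3 of the 10 genes, against 13% of all genes. Hspb1 had a higher male than female difference, a direction taken by 6.7% of all genes, and Hspa1b and Dnaja1 a lower one, taken by 6.33%. The median of this difference was -0.17 for the 10 genes and 0.0047 for all. Between the sexes among WT libraries 4 of the 10 were called, against 12.8%. Hspa1b and Hsph1 were higher in males, against 6.26% of all genes, and Hspb1 and Hsf1 lower, against 6.56%. Among KO libraries 3 were called (Hsp90aa1, Hsp90ab1 and Dnaja1), against 16.6%. All 3 were lower in males, where 8.39% of all genes were lower and 8.17% higher. Median log2 fold changes of male over female were 0.010 among WT and -0.15 among KO libraries for the 10 genes, beside -0.018 and -0.013 for all genes. Each group enters 2 of these 4 comparisons and the test between the sexes, so the comparisons share libraries and none is a repeat of another.

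**Figure D2:**
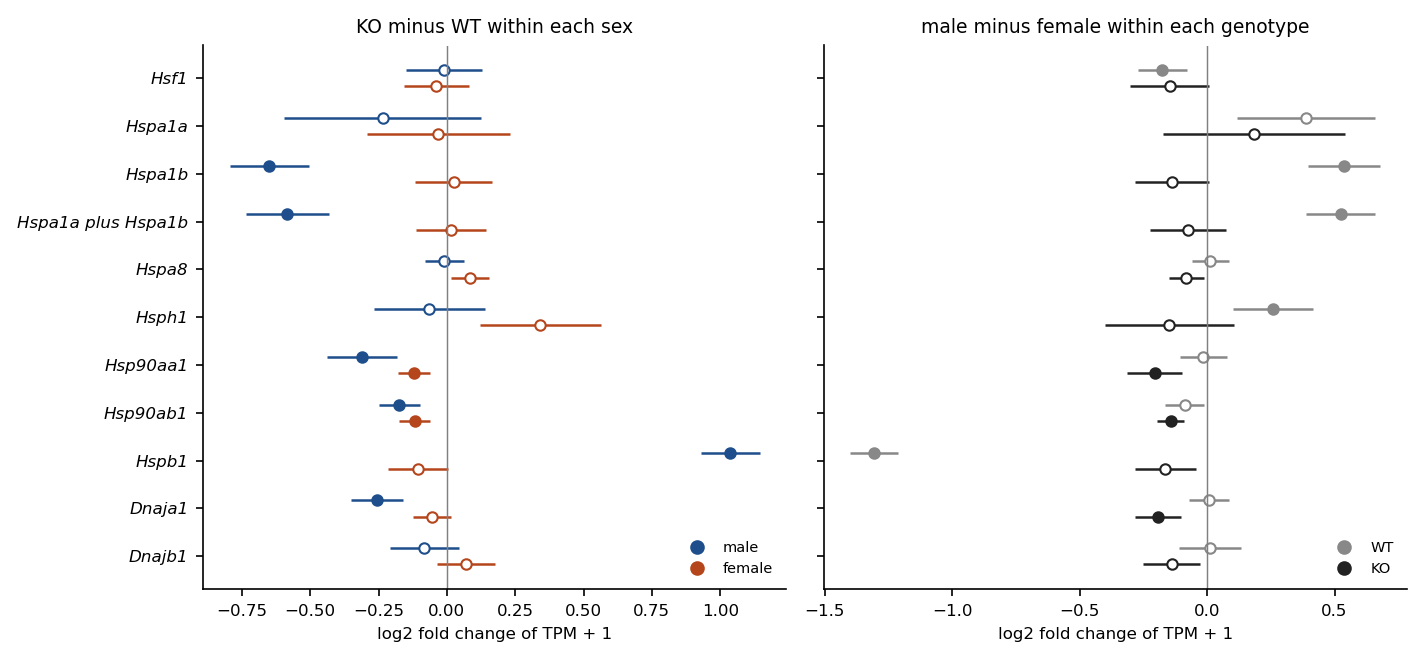
Log2 fold change of TPM+1 (x axis) for the 10 genes and the Hspa1a and Hspa1b sum, KO minus WT within each sex on the left and male minus female within each genotype on the right, with 95% intervals from limma (bars) and filled points where the adjusted p was under 0.05. Among the single genes Hspb1 differed most, by 1.04 in males and -1.30 between the WT sexes. Hspa1b came next, by -0.65 and 0.54, where the sum differed by -0.58 and 0.52.

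Hsf1 (ENSMUSG00000022556.11, chromosome 15 from 76477422 to 76501913 of GRCm38) is the factor that switches the heat shock response on. Its mRNA was at 75.2, 79.0 and 74.3 TPM in the male WT libraries, 77.6, 79.1 and 70.4 in male KO, 84.9, 87.3 and 86.1 in female WT and 79.4, 89.2 and 83.0 in female KO. The KO and WT libraries overlapped within each sex, while the 6 male libraries all lay below the 6 female ones. The closest were male KO replicate 2 at 79.06 TPM and female KO replicate 1 at 79.36. No knockout difference was called, with a log2 fold change of -0.010 in males (95% interval -0.15 to 0.13, limma adjusted p = 0.923) and -0.039 in females (-0.16 to 0.080, adjusted p = 0.672). Hsf1 was lower in male than in female WT MEFs, with a log2 fold change of -0.18 (limma adjusted p = 0.0345), with all 3 male WT libraries below all 3 female ones. Over the alternatives tried its adjusted p from limma ran from 0.0322 to 0.103. This call did not hold with the replicate block (0.0780), without the mean-variance trend (0.0810) or with all 12 libraries in one fit (0.0512). It was also lost without male WT replicate 1 (0.0941) or 3 (0.103) and without female WT replicate 1 (0.0789), 2 (0.102) or 3 (0.101). Male against female KO gave -0.15 for Hsf1 (limma adjusted p = 0.182), not called here or under any alternative (0.0831 to 0.407). Hsf1 mRNA does not measure Hsf1 activity, which in large part is set on the protein.

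Hspa1a (ENSMUSG00000091971.3, chromosome 17 from 34969190 to 34972156) and Hspa1b (ENSMUSG00000090877.3, chromosome 17 from 34956436 to 34959238) are neighbouring genes for the inducible Hsp70, the chaperone that rises most after heat. Hspa1b was at 36.6, 40.0 and 37.7 TPM in the male WT libraries, 23.1, 24.5 and 24.2 in male KO, 26.99, 25.9 and 24.9 in female WT and 26.9, 25.3 and 27.01 in female KO. The 3 male WT libraries were high and shared no value with the other 9. In male KO the mean of Hspa1b was 37.2% below that of male WT, and its log2 fold change was -0.65 (95% interval -0.80 to -0.50, limma adjusted p = 0.000525). In females it was 0.026 (-0.11 to 0.17, limma adjusted p = 0.826), and the female libraries of both genotypes overlapped. The male and female knockout differences differed by -0.68 (limma adjusted p = 0.000151). Male WT exceeded female WT by 0.54 (limma adjusted p = 0.00185), and male KO against female KO gave -0.14 (adjusted p = 0.183), not past the threshold. These called values therefore rest on the same 3 high libraries of male WT. Each of them kept its call under every alternative tried, with limma adjusted p of 5.89e-06 to 0.00435 for the male knockout difference, 4.84e-05 to 0.0148 between the WT sexes and 4.39e-05 to 0.000955 for the test between the sexes.

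Hspa1a was lower than Hspa1b in every library, at 6.77, 7.78 and 6.33 TPM in the male WT libraries, 5.63, 4.75 and 7.04 in male KO, 4.74, 5.09 and 5.38 in female WT and 5.24, 4.53 and 5.05 in female KO. Male WT was again highest on average, but 1 male KO library, replicate 3, lay within its range. None of its differences was called. Log2 fold changes were -0.24 for males (limma adjusted p = 0.323) and -0.031 for females (adjusted p = 0.890). Male over female WT gave 0.39 for Hspa1a (limma adjusted p = 0.0720), with no overlap between the groups, and was called without the mean-variance trend (0.0428, in a range of 0.0428 to 0.178 over the alternatives). At these low levels the TPM+1 scale makes fold changes smaller than they are in TPM. Of the 31-base words in the annotated transcripts of Hspa1a, 63.8% also occur in Hspa1b, and 67.6% of those of Hspa1b in Hspa1a, so the division of reads between them is uncertain and their sum is the firmer value. Summed, the inducible Hsp70 mRNA was 43.4, 47.8 and 44.0 TPM in the male WT libraries, 28.8, 29.2 and 31.2 in male KO, 31.7, 31.04 and 30.3 in female WT and 32.1, 29.9 and 32.1 in female KO. Male WT stood apart, and the other 3 groups overlapped. The sum differed by -0.58 between male KO and male WT (limma adjusted p = 0.00103) and by 0.015 between female KO and female WT (0.891). It differed by 0.52 between the WT sexes (limma adjusted p = 0.00164) and by -0.60 between the knockout differences (0.000378). Against the constitutive Hspa8 it came to 2.75 ± 0.217% in male WT, 1.82 ± 0.0766% in male KO, 1.91 ± 0.0866% in female WT and 1.82 ± 0.0932% in female KO (SD, n = 3 each). Against Hspa8 and Gm15459 together, as sequence shared by these 2 leaves their division uncertain, it came to 1.68 ± 0.124%, 1.12 ± 0.0455%, 1.17 ± 0.0442% and 1.11 ± 0.0534% in the same order, and was again highest in male WT.

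Since Hspa1b and Hspb1 moved in opposite directions in male KO MEFs and both are known targets of Hsf1, their promoters and that of Hspa1a are shown, as RefSeq gives them for GRCm38.p6. A promoter is here the 250 bases before an annotated start, read 5′ to 3′ on the strand of the gene, which is chr17:34972157-34972406 on the minus strand for Hspa1a, chr17:34959239-34959488 on the minus strand for Hspa1b, and chr5:135887669-135887918 on the plus strand for Hspb1. Capitals mark heat shock elements of 2 units, GAANNTTC or TTCNNGAA, which each read as the same pattern on the other strand.
Hspa1a: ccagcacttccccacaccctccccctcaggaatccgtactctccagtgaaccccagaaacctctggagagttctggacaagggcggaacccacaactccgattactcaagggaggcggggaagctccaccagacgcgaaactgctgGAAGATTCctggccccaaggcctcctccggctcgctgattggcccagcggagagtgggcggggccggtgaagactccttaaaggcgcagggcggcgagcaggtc
Hspa1b: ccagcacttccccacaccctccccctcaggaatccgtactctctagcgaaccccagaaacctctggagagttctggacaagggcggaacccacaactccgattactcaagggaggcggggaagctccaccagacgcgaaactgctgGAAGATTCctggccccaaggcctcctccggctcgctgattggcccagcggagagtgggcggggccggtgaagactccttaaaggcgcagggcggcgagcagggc
Hspb1: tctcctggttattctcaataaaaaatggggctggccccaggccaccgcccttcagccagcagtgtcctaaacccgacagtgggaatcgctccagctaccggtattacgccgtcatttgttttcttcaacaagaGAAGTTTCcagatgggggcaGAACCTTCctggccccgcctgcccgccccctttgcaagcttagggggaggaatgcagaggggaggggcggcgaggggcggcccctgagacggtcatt
The promoters of Hspa1a and Hspa1b had the same base at 247 of 250 positions, and each held 1 element, 104 bases before the start. The Hspb1 window held 2 elements, 117 and 97 bases before the start. Promoters were found for 6 of the 10 genes, and those of Hsf1, Hspa8, Hsp90aa1 and Hsp90ab1 were missing. An element of 2 units lay in a window of 5 of the 6 (Hspa1a, Hspa1b, Hspb1, Hsph1 and Dnaja1), and in 12.8% of all 32851 promoter windows of this length, or for 14.6% of 27025 genes counting any window of a gene. Of the Dnaja1 windows only that at chr4:40722218-40722467 held one, and 218 of its 250 bases lie in annotated exons of Dnaja1 and Gm6297. The Hsph1 windows have 61 and 40 bases in exons of Hsph1. An element of 3 units with the same spacing (GAANNTTCNNGAA or TTCNNGAANNTTC, which contain the shorter ones) lay in 0.466% of all windows and in no window of the 6 genes. A match is a stretch of letters and was not tested as a binding site, and the Hspa1a and Hspa1b windows, nearly the same in sequence, belong to genes with mRNA levels of 5.69 and 28.6 TPM on average.

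Hspa8 (ENSMUSG00000015656.17, chromosome 9 from 40800984 to 40810087) encodes Hsc70, the constitutive Hsp70 that folds new proteins and uncoats vesicles. It was at 1665, 1595 and 1665 TPM in the male WT libraries, 1649, 1597 and 1644 in male KO, 1598, 1616 and 1668 in female WT and 1678, 1728 and 1771 in female KO. The 3 female KO libraries were the highest of the 12, and the other 3 groups overlapped. Neither knockout difference was called, at a log2 fold change of -0.0099 in males (95% interval -0.081 to 0.061, limma adjusted p = 0.850) and 0.084 in females (0.015 to 0.15, adjusted p = 0.117). Of its 31-base words 38.6% also occur in Gm15459, a processed pseudogene (chromosome 5 from 5781615 to 5783555) with 91.9% of its own words in Hspa8. Gm15459 was listed at 1044, 1022 and 1042 TPM in the male WT libraries, 1019, 1043 and 1028 in male KO, 1030.0, 1013 and 1031 in female WT and 1096, 1111 and 1106 in female KO, and was again highest in the female KO libraries. Its share of the Hspa8 and Gm15459 sum was 38.6% to 39.0% on group average, so how much of either value belongs to Hspa8 is uncertain. Summed after seeing these values, the pair differed by 0.094 between female KO and female WT (limma adjusted p = 0.0503) and by -0.0092 between male KO and male WT (0.837). Hspa8 and Gm15459 together differed by -0.089 between male and female KO (limma adjusted p = 0.0430, where Hspa8 alone gave -0.082 and 0.108) and by -0.10 between the knockout differences (0.0605). On its own Gm15459 was called higher in female KO, by 0.11 (limma adjusted p = 0.0210), lower in male than female KO, at -0.10 (0.0277), and in the test between the sexes, at -0.12 (0.0223). In male KO neither Hspa8 nor Gm15459 was called, the latter at -0.0082 (limma adjusted p = 0.859).

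**Figure D3:**
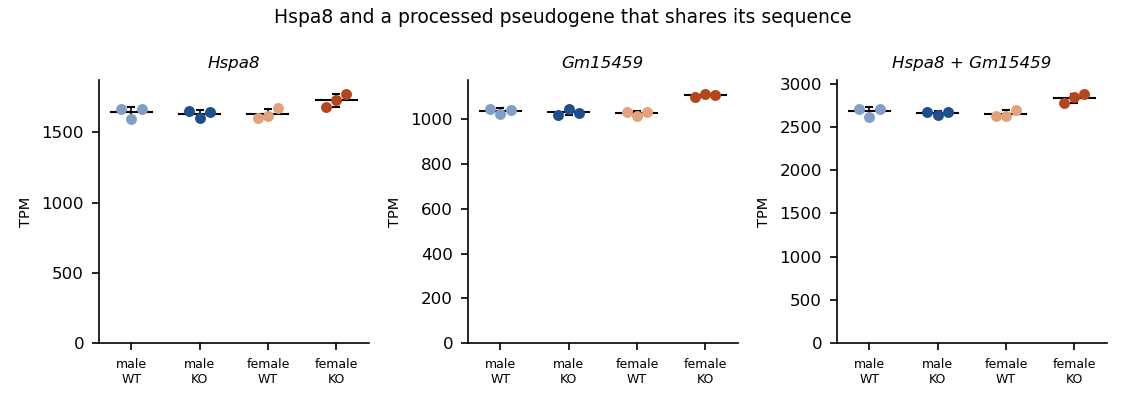
TPM of Hspa8, of the processed pseudogene Gm15459 and of their sum (y axes, from 0) in each library (points), by group, with the group mean and SD (bars, n = 3 each). Both were highest in the 3 female KO libraries, and their sum was 2830.0 ± 52.7 TPM there against 2652 ± 41.0 in female WT.

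The J-domain proteins Dnaja1 and Dnajb1 bring unfolded proteins to Hsp70 and set off its ATPase. Dnaja1 (ENSMUSG00000028410.13, chromosome 4 from 40722150 to 40737149) was at 295, 303 and 299 TPM in the male WT libraries, 247, 262 and 242 in male KO, 304, 288 and 301 in female WT and 287, 286 and 285 in female KO. Male KO was the low group, with no library as high as any of the other 9. Its log2 fold change reached -0.26 in males (95% interval -0.35 to -0.16, limma adjusted p = 0.00479), a mean 16.3% lower. In females Dnaja1 gave -0.055 (-0.13 to 0.015, limma adjusted p = 0.288), where the 3 KO libraries also lay below the 3 WT ones but the difference was not called. The sexes differed in this by -0.20 (limma adjusted p = 0.0175), a call lost without the mean-variance trend (0.0648, in a range of 0.00475 to 0.0648 over the alternatives). Male KO was below female KO, with a log2 fold change of -0.19 (limma adjusted p = 0.0145, and 0.00177 to 0.0687 over the alternatives). That call was lost without the trend (0.0687) and, by a small margin, without male KO replicate 1 (0.0517) or 3 (0.0518) or female KO replicate 1 (0.0520) or 2 (0.0518). Of the 31-base words of Dnaja1 22.6% also occur in other genes. Gm15542, with the largest share, stayed at or below 1.94 TPM, but Smu1, with 6.63%, was at 73.2 to 102 TPM. The division of reads between Dnaja1 and Smu1 was not tested. Dnajb1 (ENSMUSG00000005483.10, chromosome 8 from 83608193 to 83612653), a target of Hsf1 and the partner of the inducible Hsp70, ranged from 36.4 TPM in a male KO library to 40.6 in a female KO library. Its log2 fold change came to -0.083 for male KO (limma adjusted p = 0.315) and 0.069 for female KO (0.365), and no comparison called it. Male against female KO, where the groups did not overlap, gave -0.14 (0.0925), which passed the threshold without the filter on low values (0.00736) and with all 12 libraries in one fit (0.0413), in a range of 0.00736 to 0.203.

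Hsph1 (ENSMUSG00000029657.15, chromosome 5 from 149614287 to 149636376) is an Hsp110 that exchanges the nucleotide of Hsp70. It stood at 106, 124 and 112 TPM in the male WT libraries, 111, 97.6 and 118 in male KO, 92.8, 91.8 and 100.4 in female WT and 136, 105 and 123.1 in female KO. Female WT was lowest on average, though male KO replicate 2 lay within its range, and the male groups overlapped. In females the log2 fold change was 0.34 (95% interval 0.12 to 0.56) and was not called (limma adjusted p = 0.0625), though each KO library exceeded each WT one. It was called with a minimum of 5 TPM (0.0490), with median-of-ratios scaling (0.0479), with all 12 libraries in one fit (0.0371) and without female KO replicate 2 (0.0204), in a range of 0.0204 to 0.178 over the alternatives. Males gave -0.064 (limma adjusted p = 0.646). The sexes differed in this by -0.41, past the threshold of limma neither here (0.0774) nor under the alternatives (up to 0.161) except without female KO replicate 2 (0.0214). Male WT was above female WT by 0.26 (limma adjusted p = 0.0491, and 0.0239 to 0.140 over the alternatives), in 3 of 3 male libraries. The call was lost with a pseudocount of 0.1, no low-value filter, no trend, all 12 libraries in 1 fit or the replicate block. It was also lost without male WT replicate 2 (0.0957) or 3 (0.113) or female WT replicate 1 (0.136), 2 (0.140) or 3 (0.0654).

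Hsp90 keeps kinases, steroid receptors and other clients, Hsf1 among them, in a state from which they can be activated. Its inducible form Hsp90aa1 (ENSMUSG00000021270.13, chromosome 12 from 110690605 to 110702728) was at 816, 849 and 892 TPM in the male WT libraries, 664, 737 and 659 in male KO, 860.0, 880.4 and 840.2 in female WT and 793, 786 and 793 in female KO. Male KO was lowest, female KO came next, and the WT groups, which overlapped, lay above both. The constitutive form Hsp90ab1 (ENSMUSG00000023944.14, chromosome 17 from 45567775 to 45573271) was at 2099, 2135 and 2230.3 TPM in the male WT libraries, 1904, 1939.6 and 1884 in male KO, 2246, 2346 and 2276 in female WT and 2118, 2116 and 2091 in female KO. Male KO was again the low group and female WT the high one, while female KO overlapped with male WT. In males Hsp90aa1 had a log2 fold change of -0.31 (95% interval -0.44 to -0.18, limma adjusted p = 0.00756), a mean 19.4% lower, and kept its call under every alternative (up to 0.0412). For Hsp90ab1 it was -0.17 (-0.25 to -0.10, limma adjusted p = 0.00878), a mean 11.4% lower, and the call was lost without the mean-variance trend (0.0709, in a range of 0.000547 to 0.0709). Each male KO library lay below each male WT library for both genes.

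In females both Hsp90 genes were lower in each KO library than in any WT one. The log2 fold change there was -0.12 for Hsp90aa1 (95% interval -0.18 to -0.061, limma adjusted p = 0.0269) and -0.12 for Hsp90ab1 (-0.17 to -0.062, adjusted p = 0.0235). Both calls depended on the processing. The Hsp90aa1 call was lost without the low-value filter (0.0505), with median-of-ratios scaling (0.0664), with quantile normalization (0.122), without the trend (0.153), with all 12 libraries in one fit (0.0996) and with the replicate block (0.0812). It was also lost without female WT replicate 1 (0.0814) or 2 (0.0632) or female KO replicate 1 (0.0726), 2 (0.0825) or 3 (0.0760). For Hsp90ab1 the female call was lost without the filter (0.0800), with median-of-ratios scaling (0.0796), without the trend (0.159) and with the replicate block (0.0695). Leaving out female WT replicate 3 (0.0771) or female KO replicate 1 (0.0640), 2 (0.0684) or 3 (0.0806) also ended it. Over all alternatives the limma adjusted p ran from 0.0238 to 0.153 for Hsp90aa1 and from 0.0104 to 0.159 for Hsp90ab1, and both fold changes stayed negative.

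Whether the knockout difference was larger in males was tested for both Hsp90 genes and not called, with differences of -0.19 for Hsp90aa1 (limma adjusted p = 0.0703) and -0.056 for Hsp90ab1 (0.406). For Hsp90aa1 that test passed with median-of-ratios scaling (0.0270), without male WT replicate 1 (0.0470) and without male KO replicate 2 (0.00892), the highest of its group, in a range of 0.00892 to 0.155 over the alternatives. Male KO was below female KO, with a log2 fold change of -0.14 for Hsp90ab1 (limma adjusted p = 0.00617, and 0.101 without the trend, in a range of 0.00250 to 0.101). For Hsp90aa1 it was -0.21 (limma adjusted p = 0.0239, and 0.00234 to 0.0893 over the alternatives). This call was lost without the filter (0.0893), without the trend (0.0891), with the replicate block (0.0524), without male KO replicate 1 (0.0775) or 3 (0.0805) and without female KO replicate 1 (0.0750), 2 (0.0680) or 3 (0.0754). Among WT libraries Hsp90ab1 was not called between the sexes (-0.087, limma adjusted p = 0.134) but passed with quantile normalization (0.0319) and with all 12 libraries in one fit (0.0474), in a range of 0.0319 to 0.329. The Hsp90 mRNAs summed to 3007 ± 106 TPM in male WT, 2596 ± 70.9 in male KO, 3149 ± 66.9 in female WT and 2899 ± 13.5 in female KO (SD, n = 3 each). Hsp90aa1 made up 26.4% of it in male KO and 27.3% to 28.3% in the other groups, on average. Of the words of Hsp90aa1 51.5% also occur in other genes, but the most similar of these, Gm12346, stayed at or below 1.34 TPM.

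The small heat shock proteins hold unfolded proteins in large assemblies until an Hsp70 can take them over, and Hspb1 (ENSMUSG00000004951.10, chromosome 5 from 135887919 to 135889563), mouse Hsp25, is one of those induced by heat. Hspb1 was at 53.4, 50.9 and 53.3 TPM in the male WT libraries, 109.5, 111 and 105 in male KO, 134, 129.9 and 129.7 in female WT and 125, 115 and 127 in female KO. The male WT libraries were low, and the 4 groups did not overlap, in the rising order male WT, male KO, female KO and female WT. In male KO the mean was 2.07 times that of male WT, with a log2 fold change of 1.04 (95% interval 0.93 to 1.14, limma adjusted p = 1.79e-05). In females it was -0.10 (-0.21 to 0.0043, limma adjusted p = 0.199), not called although each female KO library was below each WT one. The knockout differences of the sexes differed by 1.14 (limma adjusted p = 5.95e-07). Male WT was below female WT, with a log2 fold change of -1.30 (limma adjusted p = 8.58e-06), a mean of 0.400 times the female one. Male against female KO gave -0.16 (limma adjusted p = 0.0722), which passed only with all 12 libraries in one fit (0.0218) and without female KO replicate 2 (0.0420), in a range of 0.0218 to 0.194. As for Hspa1b, the 3 called values share the male WT libraries. They kept their calls in every alternative, with limma adjusted p of 2.72e-08 to 0.000889 for the male knockout difference, 5.40e-09 to 0.000585 between the WT sexes and 3.34e-07 to 7.29e-06 for the test between the sexes. Hspb1 shares 55.4% of its words with other genes, of which Hsp25-ps1 was at 1.89 TPM in male KO replicate 1 and listed at 0 in the other 11 libraries.

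**Figure D4:**
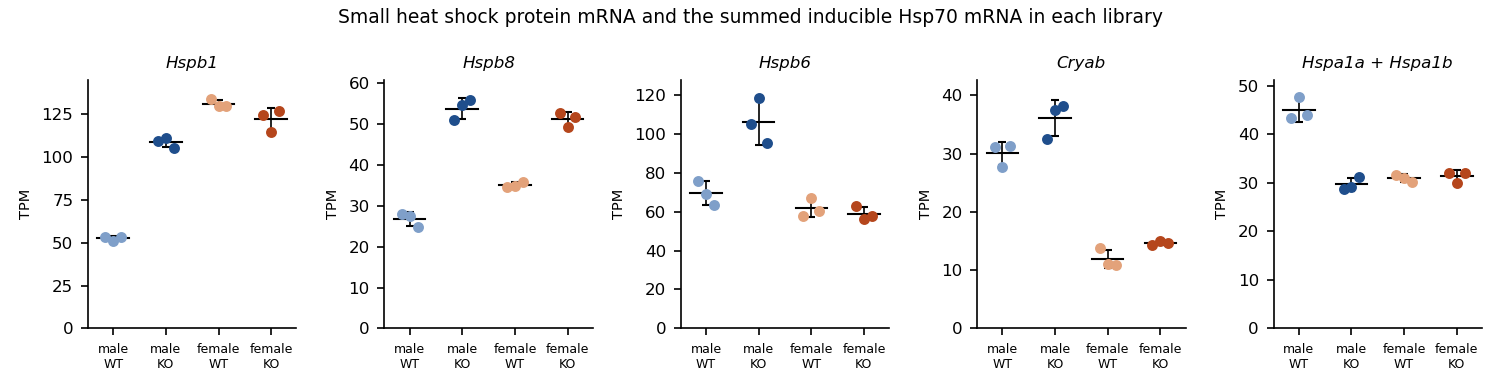
TPM of Hspb1, 3 other small heat shock protein genes and the Hspa1a and Hspa1b sum (y axes, from 0) in each library (points), by group, with the group mean and SD (bars, n = 3 each). Male WT was the low group for Hspb1 and Hspb8 and the high group for the Hspa1a and Hspa1b sum, Hspb6 was highest in male KO, and Cryab was higher in both male groups than in the female ones.

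Other genes of the same machinery were read from 8 lists by role, 71 genes in all, of which 70 were in the table (Cct6a was not analysed here) and 64 averaged 1 TPM or more (Hsf5, Hsbp1l1, Dnajc6, Cryaa, Hspb3 and Hspb7 did not). Of the 64, 17 were called in male KO, 4 higher and 13 lower (26.6% beside 21.6% of all genes, median log2 fold change -0.086, beside -0.015), and 6 in female KO, 1 higher and 5 lower (9.38% beside 11.5%, median -0.036, beside -0.023). The test between the sexes called 10, 3 higher and 7 lower (15.6% beside 13% of all genes), male against female WT 5, 3 higher and 2 lower (7.81% beside 12.8%), and male against female KO 13, 4 higher and 9 lower (20.3% beside 16.6%, medians in this order -0.043, 0.0084 and -0.053). With each library left out in turn, 9 of the 17 calls held in males, 1 of 6 in females, 5 of 10 in the test between the sexes, 2 of 5 between the WT sexes and 4 of 13 between the KO sexes, and the genes given next are among these unless a loss is stated.

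Hspb8, a small heat shock protein that works with Bag3 in the autophagy of unfolded proteins, was at 27.9, 27.5 and 24.7 TPM in the male WT libraries, 50.9, 54.7 and 55.8 in male KO, 34.6, 35.0 and 35.9 in female WT and 52.6, 49.4 and 51.9 in female KO. All its KO libraries exceeded all WT ones, and male WT was lowest, as for Hspb1. It differed by 0.98 in males (limma adjusted p = 0.000133), 0.53 in females (0.000998), -0.38 between the WT sexes (0.00954) and 0.45 between the knockout differences (0.00312). Hspb6, another of this family, averaged 106 ± 11.7 TPM in male KO, above its 69.7 ± 6.21 in male WT, 61.9 ± 4.78 in female WT and 59.0 ± 3.62 in female KO (SD, n = 3 each), and differed by 0.60 in males (limma adjusted p = 0.00539), -0.067 in females (0.597), 0.84 between the KO sexes (0.000880) and 0.67 between the knockout differences (0.00459). Cryab averaged 30.0 ± 2.02 TPM in male WT, 36.1 ± 3.08 in male KO, 11.9 ± 1.60 in female WT and 14.7 ± 0.329 in female KO (SD, n = 3 each), and its male libraries all lay above its female ones, with 1.27 among WT (limma adjusted p = 0.000515) and 1.24 among KO (9.41e-05). All of these calls held under every alternative tried.

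Genes that work with the Hsp70 and Hsp90 chaperones went both ways in male KO. Hspa4, an exchange factor like Hsph1, averaged 221 ± 6.70 TPM in male WT against 169.7 ± 9.36 in male KO (SD, n = 3 each), with a log2 fold change of -0.38 (limma adjusted p = 0.00230). For Ppid, a prolyl isomerase of the Hsp90 complex, the fold change was -0.30 (limma adjusted p = 0.00172), for the Hsp90 partner Nudc -0.26 (0.00274), for Stip1, which passes clients from Hsp70 to Hsp90, -0.19 (0.00659), and for the prefoldin gene Pfdn2 -0.32 (0.00565), all held in every alternative. Also called lower in male KO, but not under every alternative, were the J-domain genes Dnaja2 (-0.33, limma adjusted p = 0.0238, lost without any male KO replicate or with no low-value filter or no trend, 0.0103 to 0.0922 over the alternatives) and Dnajc2 (-0.17, 0.0217, without male WT replicate 1 or 3 or male KO replicate 3 or with median-of-ratios scaling, no trend or the replicate block, 0.00399 to 0.0791), the Hsp90 partner Ppp5c (-0.28, 0.0438, without male WT replicate 2 or 3 or male KO replicate 1 or 3 or with no low-value filter or no trend, 0.0141 to 0.131) and Pfdn4 (-0.25, 0.0426, without any 1 of the 6 libraries but male WT replicate 2 or with no low-value filter, median-of-ratios scaling, quantile normalization, no trend or the replicate block, 0.00999 to 0.127). Of 9 genes for exchange on Hsp70 and its link to ubiquitin, 2 were called in male KO, both higher, beside 10.7% of all genes, Bag2 (0.24, limma adjusted p = 0.0127, lost without male WT replicate 3, 0.00448 to 0.0501) and Bag3 (0.23, 0.0187, without any male WT replicate or male KO replicate 1, 0.00488 to 0.0595). In female KO the fold change was -0.15 for Hspa4 (limma adjusted p = 0.0359), lost without any 1 of the 6 libraries and with no low-value filter, median-of-ratios scaling, no trend or the replicate block (0.0282 to 0.115 over the alternatives), and -0.15 for Ppid (0.0153), lost without female WT replicate 1 or 3 or female KO replicate 1 or 2 and with no trend or the replicate block (0.00538 to 0.0820). Dnajc2 (-0.16, limma adjusted p = 0.0481, lost without any 1 of the 6 libraries or with no low-value filter, median-of-ratios scaling, quantile normalization, no trend or the replicate block, 0.0136 to 0.128) and Pfdn4 (-0.22, 0.0271, lost without any 1 of the 6 libraries but female KO replicate 3 or with no low-value filter, no trend or the replicate block, 0.0220 to 0.0843) were called lower in female KO as well. In the CCT chaperonin, which folds actin and tubulin, 4 of 7 genes were called lower in male KO, beside 10.9% of all genes, of which Cct2 (-0.19, limma adjusted p = 0.00878) was lost with no trend (0.000470 to 0.0554 over the alternatives) and Cct8 (-0.16, 0.0145) with median-of-ratios scaling or no trend (0.000885 to 0.0844), while Cct3 (-0.15, 0.0440) was lost without any 1 of the 6 libraries but male WT replicate 2 and with no low-value filter, median-of-ratios scaling, quantile normalization or no trend (0.0152 to 0.168), and Cct7 (-0.11, 0.0394) without any 1 of the 6 libraries and with median-of-ratios scaling, no trend or the replicate block (0.00996 to 0.202). In female KO, 1 of the 7 was called (14.3%, beside 11.5% of all genes). This was Cct2, at -0.12 (limma adjusted p = 0.0265), lost without any 1 of the 6 libraries but female WT replicate 2 and with median-of-ratios scaling, no trend or the replicate block (0.0166 to 0.146). Cct7 was lower in male than female KO, at -0.26 (limma adjusted p = 0.00106), in every alternative, and Nudc, at -0.18 (0.00680), in all but that with no trend (0.00365 to 0.0619 over the alternatives). Between the WT sexes limma also called Hspa4l (0.37, limma adjusted p = 0.0182, lost without male WT replicate 1 or 2 or female WT replicate 1 or 3, 0.0111 to 0.0645 over the alternatives), Ahsa1 (0.16, 0.0380, without any 1 of the 6 libraries or with no low-value filter, no trend or the replicate block, 0.00942 to 0.117) and Bag6 (-0.15, 0.0469, without any 1 of the 6 libraries or with no low-value filter, median-of-ratios scaling, no trend, all 12 libraries in 1 fit or the replicate block, 0.0334 to 0.139). Between the KO sexes it also called Hsf4 (0.89, limma adjusted p = 0.0287, lost without any 1 of the 6 libraries but female KO replicate 2 or with no low-value filter or the replicate block, 0.00335 to 0.101 over the alternatives), Hspa4l (0.37, 0.0468, without any 1 of the 6 libraries but male KO replicate 1 or with no low-value filter, no trend or the replicate block, 0.0103 to 0.143), Hspa12a (-0.59, 0.0446, without any 1 of the 6 libraries or with the replicate block, 0.00907 to 0.124) and Hspa12b (-0.46, 0.0438, without any 1 of the 6 libraries but male KO replicate 2 or with no low-value filter or the replicate block, 0.0180 to 0.129). The others called between the KO sexes were Hspa4 (-0.18, limma adjusted p = 0.0426, lost without any 1 of the 6 libraries but male KO replicate 1 or with no low-value filter, median-of-ratios scaling, quantile normalization, no trend or the replicate block, 0.0135 to 0.118 over the alternatives), Stip1 (-0.14, 0.0456, without any 1 of the 6 libraries or with no low-value filter, median-of-ratios scaling, quantile normalization, no trend or the replicate block, 0.00646 to 0.154), Ppid (-0.14, 0.0383, without any 1 of the 6 libraries but male KO replicate 2 or with no trend or the replicate block, 0.00463 to 0.126), Cct2 (-0.14, 0.0136, without male KO replicate 3 or female KO replicate 2 or with no trend, 0.00371 to 0.104) and Vbp1 (-0.22, 0.0466, without any 1 of the 6 libraries but female KO replicate 2 or with no low-value filter, median-of-ratios scaling, no trend or the replicate block, 0.0221 to 0.125). Cdc37, Fkbp4, Ptges3, Bag1, St13, Tcp1, Cct4 and Cct5, which averaged 211 to 509.6 TPM, were not called in any comparison.

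**Figure D5:**
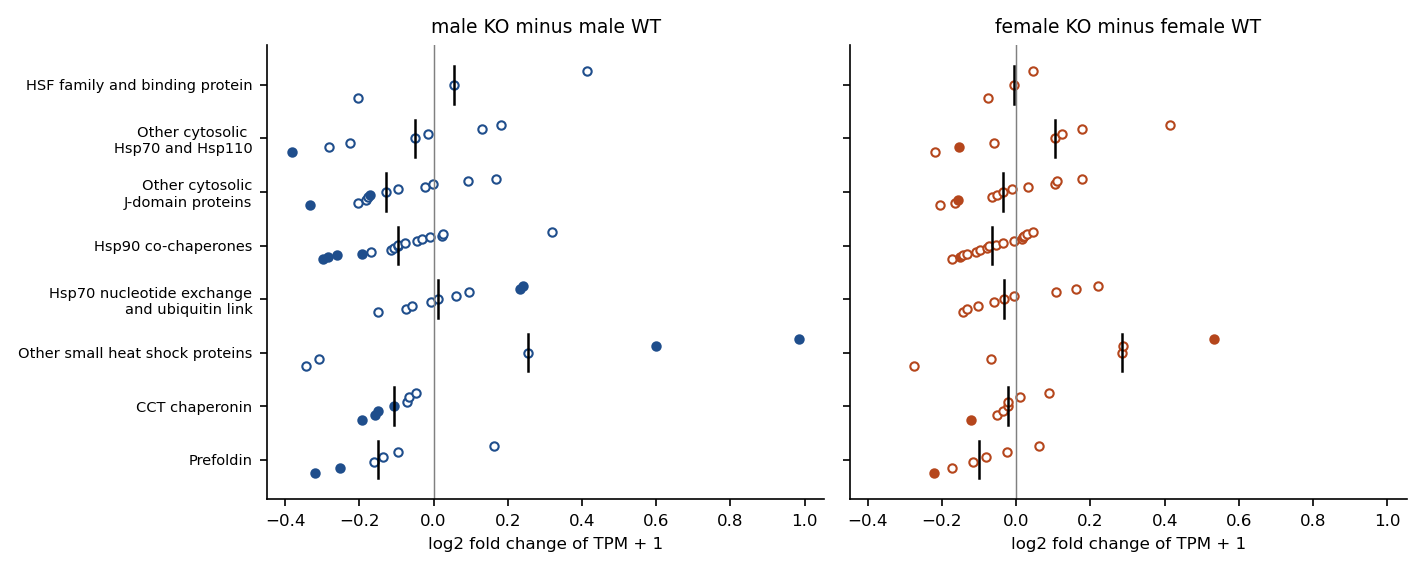
Log2 fold change of TPM+1 between KO and WT (x axis) for each tested gene of the 8 lists (points, filled where the limma adjusted p was under 0.05), in males on the left and females on the right, with the median of each list (vertical bars). The male median was lowest for prefoldin, -0.15, and highest for the other small heat shock proteins, 0.25.

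For the chaperone genes called in both sexes or in the test between the sexes, the genes with the most similar pattern over the 12 libraries were looked up by Pearson r of log2(TPM+1), n = 12, as a description. The libraries fall into 4 groups, so such an r mostly restates group levels. Nearest to Hspa1b were Sox21 (r = 0.976), Syt7 (0.973) and Crabp2 (0.972), all highest in male WT, where Crabp2 stood at 124 TPM on average against 26.2 in male KO, 40.2 in female WT and 41.5 in female KO. Nearest to Hspb1 were Igfbp7 (0.985), Zfp503 (0.977) and Zeb2 (0.974), all lowest in male WT, with Igfbp7 at 198 TPM there, 455 in male KO, 509 in female WT and 547 in female KO. Nearest to Dnaja1 were Hspd1 (0.973), Tsr1 (0.971) and Spred2 (0.965), to Hsp90aa1 Fzd7 (0.974), Psip1 (0.972) and Nop2 (0.964), and to Hsp90ab1 Nop2 (0.977), Dusp5 (0.972) and Ptgs2 (0.972), these 3 sets lowest in male KO.

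Markers of cell type and of culture state moved beside these genes. Of 7 fibroblast markers, 4 were called higher in male KO, where 10.7% of all genes were, and 5 in female KO, where 5.63% were. Their summed TPM was 9056, 10169 and 9933 in male WT, 11386, 12082 and 11717 in male KO, 7919, 8108 and 8068 in female WT and 10009.8, 9678 and 9979 in female KO, with Col1a1 the most abundant on average in all groups but female WT, where Vim was. Of 5 epithelial markers 3 were tested and all 3 were called lower in KO of both sexes, beside 10.9% of all genes in males and 5.84% in females, and their sum, mostly Krt19, was 77.8, 77.6 and 76.0 TPM in the male WT libraries, 7.90, 8.78 and 8.06 in male KO, 19.7, 22.7 and 22.4 in female WT and 7.40, 7.75 and 10.2 in female KO. It was highest in male WT, as Hspa1b was, while Cdh1 and Krt8 stayed near 0, with group means of at most 0.178 and 0.287 TPM. Endothelial markers, mostly Kdr, summed to 1.48 to 2.02 TPM as means of 3 groups and to 5.25 in female WT, with group means of Cdh5 at no more than 0.0618. Blood markers summed to 5.78 to 7.77 as group means, mostly Cd68, with group means of Ptprc at no more than 0.0697. Muscle markers summed to 0.363 to 0.568 as means of 3 groups and, mostly as Des, to 6.60 in female WT, with group means of Myod1 at no more than 0.0770. Kdr differed by -1.06 in female KO (limma adjusted p = 0.00368), -1.24 between the WT sexes (0.00180) and 0.93 in the test between the sexes (0.00625), and Des by -2.70 (0.000295), -2.63 (8.92e-05) and 2.61 (3.26e-05). Of 9 immediate early genes, 5 were called in male KO, beside 21.6% of all genes (4 higher, and Jun lower, at -0.61, limma adjusted p = 0.000184) and 3 in female KO, all lower, beside 5.84% called lower of all genes, and their sum, with Junb the most abundant, was 659, 704 and 685 TPM in the male WT libraries, 702, 724 and 745 in male KO, 753, 762 and 737 in female WT and 673, 649 and 663 in female KO. Of 8 proliferation genes, 4 were called lower in male KO, beside 10.9% of all genes, and 1 (Ccnb1) in female KO, beside 5.84%. The sum of these, with Cdk1 the most abundant, was 1374, 1422 and 1410.2 TPM in the male WT libraries, 1232, 1283 and 1211 in male KO, 1350.2, 1326 and 1369 in female WT and 1349.6, 1319.8 and 1321 in female KO. Like Hsp90aa1 and Dnaja1, it was lowest in the 3 male KO libraries. Of the 7 fibroblast, 3 epithelial, 9 immediate early and 8 proliferation genes tested, 3, 2, 5 and 0 were called between the WT sexes (12.8% of all genes), 3, 0, 3 and 1 between the KO sexes (16.6%) and 1, 2, 6 and 1 in the test between the sexes (13%). The part of these lists in the differences of the chaperone genes was not tested.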

How the data were processed

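Polyadenylated RNA of 12 MEF libraries was measured, 3 per sex and genotype. The authors deposited raw reads, not analysed here, and 1 table of TPM per gene, made with Salmon 1.10.1 against GRCm38 according to their processing notes. TPM removes library size, so the table does not show the depth reached in a library, while the methods state the number of reads aimed at. All 12 columns of values were used. The 12504 of 34866 genes that averaged 1 TPM or more were put on the log2(TPM+1) scale and tested with limma 3.58.1 in R 4.3.3 with a mean-variance trend and Benjamini-Hochberg adjustment, called at an adjusted p under 0.05. Each comparison of 2 groups used its 6 libraries, and the test between the sexes used all 12. Positions came from GENCODE M21 (99.2% of identifiers matched, 93.4% in the same version) and promoters from RefSeq. Python 3.11.15, numpy 2.4.6, pandas 2.3.3 and matplotlib 3.10.9 were used. The procedure was tested on simulated data.

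The 10 genes and the gene lists were chosen with earlier results of these data known. Beyond the 10, the text names the 2 called genes with the largest absolute log2 fold change of each list and comparison, list genes that average 200 TPM or more, and the 3 genes most correlated with each of the 10 that was called between the sexes or in both, and, a choice made after values were seen, all genes of the 8 related lists past the threshold in any comparison. Krt19, other marker genes and Gm15459 were named after their values were seen. The fits were repeated with quantile-normalized or median-of-ratios scaled values, with the low-value filter raised to 5 TPM or dropped, with 0.1 added in place of 1, without the trend, with the replicate number as a blocking term, with 1 fit for all 12 libraries, with each library left out in turn, with Hspa1a and Hspa1b as 1 summed gene and, chosen after seeing the data, with Hspa8 and Gm15459 summed.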

Additional observations from a re-analysis of the deposited data

Results flagged for a closer look

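The male and the female knockout differences were compared by a direct test (limma, all 12 libraries). It was passed by 13 genes of the chaperone and related lists, beside 13% of all genes. These were 3 of the 10 chaperone genes and 10 of the 64 tested from the lists of related genes (15.6%). Other named genes that passed it, such as Gm15459, Kdr and Des, are not counted here. The difference, male minus female on the log2 scale, was -0.68 for Hspa1b (limma adjusted p = 0.000151), 1.14 for Hspb1 (5.95e-07) and -0.20 for Dnaja1 (0.0175). For the related genes it was 0.67 for Hspb6 (0.00459), 0.45 for Hspb8 (0.00312), -0.20 for Cct7 (0.00415), -0.21 for Stip1 (0.00516) and -0.22 for Nudc (0.0126, by limma in each case). These 8 passed with every library left out in turn, while Dnaja1 (limma adjusted p = 0.0648) and Nudc (0.0523) did not pass without the mean-variance trend.

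The other 5 depended on which libraries were kept and on the processing. Hspa12a differed by -0.70 (limma adjusted p = 0.0496), and did not pass with any 1 of the 12 libraries left out or with a pseudocount of 0.1 or the replicate block (0.00591 to 0.111 over all alternatives). Ppid differed by -0.15 (limma adjusted p = 0.0362), and did not pass without any 1 of the 12 libraries but male KO replicate 2 or with no trend or the replicate block (0.0195 to 0.117 over all alternatives). Hspa4 differed by -0.23 (limma adjusted p = 0.0308), and did not pass without male WT replicate 1 or 3, male KO replicate 2 or 3, female WT replicate 2 or 3 or any female KO replicate or with median-of-ratios scaling, quantile normalization or no trend (0.00988 to 0.0765 over all alternatives). Stub1 differed by 0.16 (limma adjusted p = 0.0394), and did not pass without male WT replicate 1 or 3, male KO replicate 1 or 2, any female WT replicate or female KO replicate 2 or 3 or with median-of-ratios scaling, no trend or the replicate block (0.0270 to 0.105 over all alternatives). Cct8 differed by -0.13 (limma adjusted p = 0.0319), and did not pass without male WT replicate 1 or 3, male KO replicate 1 or 2, female WT replicate 2 or 3 or any female KO replicate or with median-of-ratios scaling, quantile normalization, no trend or the replicate block (0.0299 to 0.146 over all alternatives). The groups may hold 1 line each, so a difference between lines cannot be told apart from one between the sexes.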

How the results depend on the processing

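Values of Hsf1 and the chaperone genes were followed in every comparison, and those of the related lists only where called above. Genes of the related lists could thus lose a call here but not gain one, and gains of theirs elsewhere are not counted. Other named genes, such as Gm15459, Kdr and Des, were not followed. No called value among those followed changed sign under an alternative. Each value was counted once for every alternative it was followed in, so 1 value can be counted several times. Counted in this way, 113 lost a call under another processing choice, 11 gained one and 663 stayed on their side of the threshold. With 1 library left out, 195, 5 and 508 did so. A further 26, counted in the same way, changed sign without a call, the largest at 0.041.

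Counts that moved by more than 1.5 times were as follows. Without the mean-variance trend, limma called 9 genes of the related lists between male KO and WT, 1 between female KO and WT, 6 between the KO sexes and 5 in the test between the sexes. Of the 10 chaperone genes it then called 0 between female KO and WT (unadjusted p under 0.05 for 3) and 0 between the KO sexes (6). Without the low-value filter, limma called 0 of the 10 between female KO and WT (unadjusted p under 0.05 for 5), with 3 genes of the related lists, and 7 of these lists between the KO sexes. Median-of-ratios scaling called 1 of the 10, Hsph1 (limma adjusted p = 0.0479), in place of Hsp90aa1 (0.0664) and Hsp90ab1 (0.0796), and 3 of the related lists between female KO and WT, and quantile normalization kept 1 of the 10, Hsp90ab1 but not Hsp90aa1 (0.122), with 8 of the related lists between the WT sexes. With the replicate block, 670 genes were called between female KO and WT, limma called 0 of the 10 (unadjusted p under 0.05 for 4) and 1 gene of the related lists, while 2 of the 10 were called between the WT sexes and 6 genes of the related lists between the KO sexes. All 12 libraries in 1 fit gave 5 of the 10 between the KO sexes. The count of all genes called moved this far only with the replicate block between female KO and WT, to 670 from 1434. Elsewhere it stayed within 1.5 times its value in the main fit. Shares of all genes under each setting are not given, so a general change in calls cannot be told apart from one of these genes. The cause of these changes was not tested.

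With 1 library left out, 2 libraries remain in a group, and fewer genes were called in all. Between male KO and WT 1813 to 2318 genes, 5 of the 10 each time and 10 to 15 of the related lists were called. Between female KO and WT the ranges were 774 to 835 genes, 0 to 1 of the 10 (limma called 0 without female KO replicate 1 or 3, with an unadjusted p under 0.05 for 4) and 1 to 3 of the related lists. Between the WT sexes they were 1037 to 1243, 2 to 3 and 2 to 3, between the KO sexes 1328 to 1824, 1 to 3 and 4 to 10, and in the test between the sexes 1353 to 1559, 3 to 4 and 5 to 8. TPM gives no read counts, so what depth limits could not be read.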
